A study of Mus musculus with 12 samples.

Results

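The Wnt feedback targets and TCF factors described here are 10 genes (*Axin2*, *Nkd1*, *Nkd2*, *Notum*, *Znrf3*, *Rnf43*, *Lef1*, *Tcf7*, *Tcf7l1* and *Tcf7l2*) of the 35727 Ensembl genes in the bulk RNAseq count table, found by matching their mouse symbols to the Ensembl identifiers. All 10 were in the table and 9 had enough counts for the fit across all genes, with *Rnf43* the exception. The samples were cultures of fibroblasts from pooled neonatal mouse hearts, kept in EGM2 media, that were either infected with retroviruses carrying *Sox17* and *Erg* or served as controls. RNA of both treatments was taken 3 times, on Day 3, on Day 7 and after 4 weeks, which gave 6 groups of 2 libraries and 12 libraries in all. The labels call the first kind of culture iEC (induced endothelial cells, *Sox17*-*Erg* samples below) and the second fibroblast (control samples below), and their descriptions tag the control libraries PMX. The methods use that name for the retroviral backbone, and what insert, if any, the control virus carried is not stated. The retroviral genes are expressed from the vector and not from a promoter particular to a cell type. The methods name C57BL/6J and Tcf21-CreERT2;Rosa26-tdTomato mice without saying which gave these samples, and describe selection for THY1, with depletion of PECAM1 cells before it where that was done. In the section that reports the bulk RNAseq, the paper says that this depletion was added to limit native endothelial cells among the fibroblasts. No sort of the infected cultures is described, so each library is a mixture in which more cells of a type and more RNA per cell cannot be told apart. The labels name 2 replicates per group without saying whether they came from separate isolations, so p-values measure the spread between these libraries only.

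In the canonical Wnt pathway a secreted Wnt ligand binds a Frizzled receptor and its LRP co-receptor, the complex that destroys beta-catenin is held back, and beta-catenin enters the nucleus to act with a DNA-binding factor of the TCF family. The family has the members LEF1, TCF7, TCF7L1 and TCF7L2, of which TCF7L1 is best known as a repressor of Wnt targets. Many of the genes that the pathway turns on act against it. AXIN2 is a scaffold of the destruction complex and its transcript is widely used as a readout of the pathway. NKD1 and NKD2 bind Dishevelled, NOTUM is a secreted enzyme that removes the lipid from Wnt ligands, and ZNRF3 and RNF43 are membrane ubiquitin ligases that clear Frizzled receptors from the cell surface unless R-spondins bind. In endothelium the pathway is best known from the vessels of the brain, where it sustains barrier genes, and SOX17 has been described both as a partner of beta-catenin and as an antagonist of TCF factors.

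Over the whole series, library totals ran from 19011635 to 41240449 counts, and no member shares annotated exon bases with a gene of its own strand. Levels are given in CPM, which are counts divided by library size after TMM scaling. *Sox17* lay between 432 and 1036 CPM in every *Sox17*-*Erg* library, and the highest control library had 9 counts of it. *Erg* was between 17.1 and 65.2 CPM in the *Sox17*-*Erg* libraries and at most 2.26 CPM in the control libraries. The 8 endothelial markers followed here summed to between 306 and 702 CPM in *Sox17*-*Erg* libraries and between 17.9 and 52.5 CPM in control libraries. The 7 fibroblast markers were abundant in both treatments, with sums that overlapped on Day 3 (25111 to 39055 CPM in *Sox17*-*Erg* against 29694 to 35662 in control libraries), were higher in *Sox17*-*Erg* libraries on Day 7 (29637 to 30704 against 19340 to 23714) and lower after 4 weeks (10021 to 10888 against 11805 to 13149). Of the 7 markers 0, 1 and 1 were called higher and 1, 2 and 3 lower at these times.

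The promoter windows of *Nkd1*, *Nkd2*, *Tcf7* and *Tcf7l2* are shown first, so that the reader can see what DNA stands at these start sites. Each is 300 bases from RefSeq (build GRCm38.p6), running from upstream of an annotated start to shortly past it, written 5′ to 3′ on the strand of the gene. RefSeq windows were at hand for 8 of the 10 members, with none for *Notum* and *Znrf3*. Capitals mark every match, on either strand, to CTTTG (the core of TCF/LEF sites), CCGGAA (an ETS site, the family of ERG) or ACAAT (the core of SOX sites). *Nkd1* stands at chr8:88527383-88527682 on the plus strand, *Nkd2* at chr13:73847582-73847881 on the minus strand, *Tcf7* (the downstream of its 2 starts) at chr11:52282546-52282845 on the minus strand, and *Tcf7l2* (the upstream of its 2 starts) at chr19:55741560-55741859 on the plus strand.
Nkd1: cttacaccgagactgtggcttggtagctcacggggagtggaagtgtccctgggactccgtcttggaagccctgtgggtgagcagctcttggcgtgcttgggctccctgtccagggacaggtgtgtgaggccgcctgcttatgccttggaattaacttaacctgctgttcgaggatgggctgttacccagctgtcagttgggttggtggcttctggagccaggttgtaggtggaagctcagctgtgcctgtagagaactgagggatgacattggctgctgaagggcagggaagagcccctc
Nkd2: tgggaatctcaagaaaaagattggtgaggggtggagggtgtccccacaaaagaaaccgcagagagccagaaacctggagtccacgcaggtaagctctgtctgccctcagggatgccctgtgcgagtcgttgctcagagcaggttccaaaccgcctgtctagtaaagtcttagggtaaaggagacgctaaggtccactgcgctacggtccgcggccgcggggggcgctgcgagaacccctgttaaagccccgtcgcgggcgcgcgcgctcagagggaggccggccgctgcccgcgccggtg
Tcf7: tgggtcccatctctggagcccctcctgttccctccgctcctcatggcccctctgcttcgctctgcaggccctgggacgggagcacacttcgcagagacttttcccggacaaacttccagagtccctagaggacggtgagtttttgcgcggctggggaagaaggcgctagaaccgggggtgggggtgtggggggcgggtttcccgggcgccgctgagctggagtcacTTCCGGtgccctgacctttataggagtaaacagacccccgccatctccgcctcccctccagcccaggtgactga
Tcf7l2: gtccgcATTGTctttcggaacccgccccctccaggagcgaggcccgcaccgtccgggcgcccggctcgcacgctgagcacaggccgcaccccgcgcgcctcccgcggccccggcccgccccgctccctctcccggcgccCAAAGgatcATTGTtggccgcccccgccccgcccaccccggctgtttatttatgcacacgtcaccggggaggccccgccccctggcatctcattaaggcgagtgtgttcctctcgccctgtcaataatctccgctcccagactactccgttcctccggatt

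The *Nkd1* and *Tcf7* windows lie inside the genes as GENCODE annotates them. The windows of *Nkd1* and *Nkd2* held none of these letters, and neither did that of *Axin2*, which is not printed. For *Tcf7* and *Tcf7l2*, with 2 windows each, the printed window is the one with ETS or SOX letters. In the printed *Tcf7* window the ETS letters lie 24 bases before the start, on the opposite strand, and the window of the other *Tcf7* start (chr11:52282965-52283264) held none of the letters. The *Tcf7l2* window has the TCF/LEF core 111 bases before the start and the SOX core at 244 and 102 bases before it, all on the opposite strand, and the window of its other start (chr19:55895071-55895370) held the TCF/LEF core and neither of the others. Among the 14 windows of the 8 members, 7 windows of 3 members (*Lef1*, *Tcf7l1* and *Tcf7l2*) held CTTTG, where 53.9% of the 32851 windows of all genes did. The longer TCF/LEF letters CTTTGAT, which contain CTTTG, were in 0 of the 14 and in 3.73% of all windows. CCGGAA was in 2 member windows and in 14.9% of all, and ACAAT was in 3 and in 31.0% of all. These matches are letters in a window of fixed size, and TCF sites outside it were not searched.

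Per kilobase of merged exons, *Tcf7l1* was the most abundant member, with a mean of 10.9 CPM per kb over the 12 libraries (range 7.84 to 12.7). *Nkd2* followed at 4.10 (1.02 to 8.10), *Nkd1* at 3.77 (0.732 to 9.50) and *Tcf7l2* at 2.60 (1.90 to 3.28), and the ranges of these 4 neighbors in the order overlapped. *Znrf3*, at 0.890 (0.609 to 1.22), lay below every *Tcf7l2* library and above every *Axin2* library. *Axin2* had 0.396 (0.143 to 0.578), *Tcf7* 0.269 (0.0573 to 0.539), *Notum* 0.103 (0 to 0.246), *Lef1* 0.0798 (0.0362 to 0.120) and *Rnf43* 0.0190 CPM per kb (0 to 0.0463), and each of these overlapped its neighbor. Counts behind these levels were thin at the low end. *Lef1* had 9 to 29 counts per library, *Tcf7* 6 to 46, *Notum* 0 to 16 and *Rnf43* 0 to 7, against 608 to 1633 for *Tcf7l1*, and the intervals around the differences of the first 3 genes are wide.

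**Figure D1:**
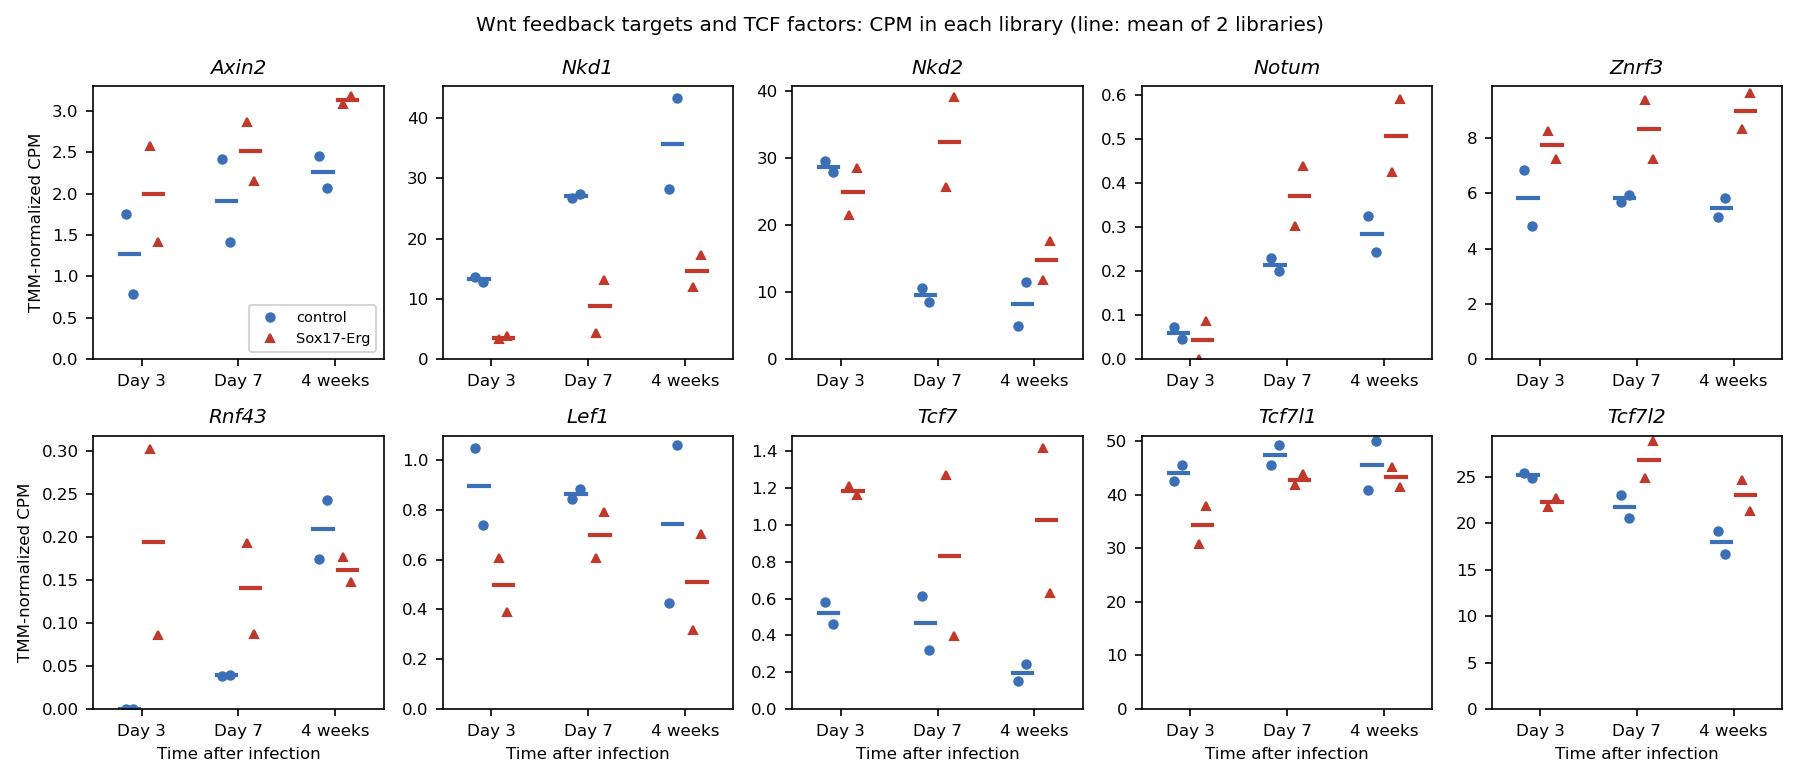
TMM-normalized CPM (y axis, linear from 0) of the 10 genes at Day 3, Day 7 and 4 weeks (x axis) in control (blue circles) and *Sox17*-*Erg* libraries (red triangles), with a line at the mean of the 2 libraries of each group. The *Nkd1* triangles lie below the circles at every time point (3.34 and 3.83 against 13.7 and 12.8 CPM at Day 3), while for *Znrf3* they lie above.

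Whether *Sox17*-*Erg* changed these genes relative to control cultures was tested at each time point with edgeR's quasi-likelihood test, with Benjamini-Hochberg adjustment over all 15506 genes tested and a call at an adjusted p under 0.05. At Day 3 *Nkd1* was lower and none of the other 8 was called, when 12.3% of all genes were called (7.19% higher and 5.13% lower). At Day 7 *Nkd1* was lower and *Nkd2* higher, against 17.4% of all genes (9.48% higher and 7.93% lower). At 4 weeks *Tcf7* and *Znrf3* were higher, against 22.9% of all genes (11.9% higher and 11.0% lower). With 9 genes, 1 or 2 calls per time point are near these shares. The median log2 fold change of the 9 was -0.20, 0.39 and 0.46 at the 3 time points, where that of all genes was 0.010, 0.006 and -0.014. The libraries of the 2 treatments did not overlap for 6, 7 and 7 of the 9 genes, where 64.0%, 57.9% and 62.7% of all genes had such a gap. The 3 time points were fitted together and have their own control libraries.

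**Figure D2:**
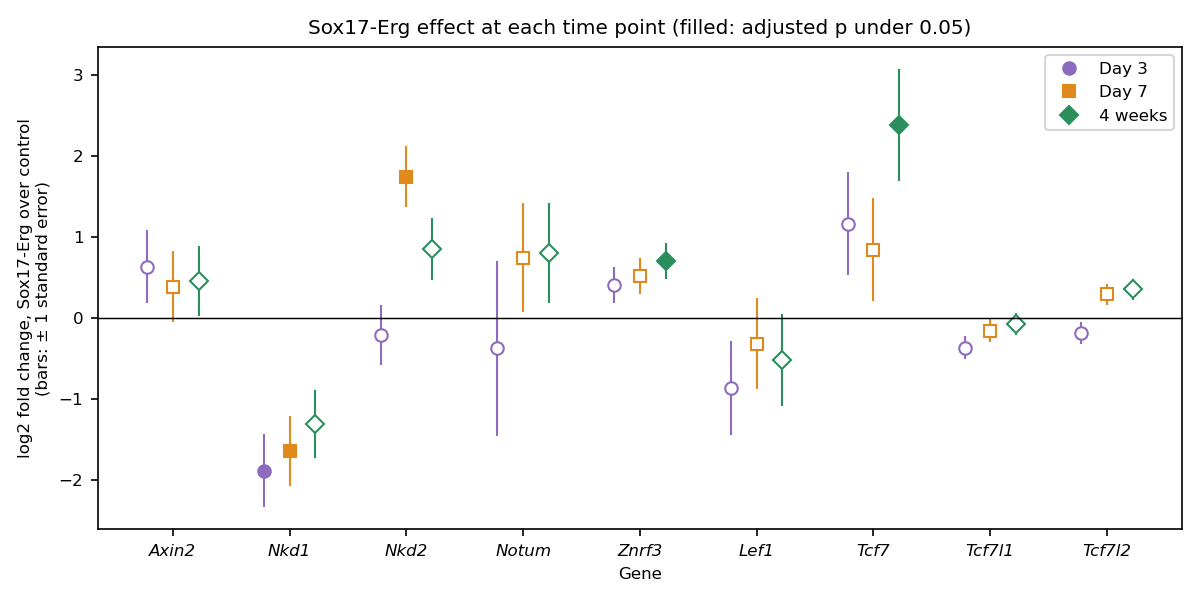
Log2 fold change of *Sox17*-*Erg* over control (y axis) for the 9 tested genes (x axis) at Day 3 (circles), Day 7 (squares) and 4 weeks (diamonds), with bars of 1 standard error either way. Filled symbols passed an adjusted p under 0.05: *Nkd1* at Day 3 (-1.88) and Day 7 (-1.64), *Nkd2* at Day 7 (1.75), and *Tcf7* (2.39) and *Znrf3* (0.71) at 4 weeks.

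*Axin2* (ENSMUSG00000000142, chromosome 11, 108920349 to 108950783, GRCm38), the general readout of the pathway, was not called at any time point. At Day 3 it had 1.75 and 0.786 CPM in the control libraries and 2.58 and 1.42 CPM in the *Sox17*-*Erg* libraries. At Day 7 the values were 2.42 and 1.41 CPM in control and 2.87 and 2.15 in *Sox17*-*Erg*, and at 4 weeks 2.45 and 2.07 in control and 3.08 and 3.18 in *Sox17*-*Erg*. The treatments overlapped at Day 3 and Day 7, and at 4 weeks both *Sox17*-*Erg* libraries were above both control libraries. Relative to control the log2 fold change was 0.64 on Day 3 (95% interval -0.38 to 1.66, adjusted p = 0.38), 0.39 at Day 7 (-0.59 to 1.38, 0.57) and 0.46 at 4 weeks (-0.51 to 1.43, 0.49). These intervals reach from a fall to a rise of more than 2-fold. Over the 3 time points together, an exact permutation test of *Axin2* with labels permuted within each time point gave a two-sided p of 0.065, where the smallest p that this design can give is 0.0093. Taken by replicate number, *Axin2* was higher in the *Sox17*-*Erg* library in 6 of 6 pairs of libraries, and an exact sign-flip permutation test over these pairs, chosen after seeing the data, gave a two-sided p of 0.031, the smallest that 6 pairs can give, with 10 genes so tested. That test takes the 6 pairs as independent, which they need not be, since the same replicate numbers recur at the 3 time points. Of the 9 tested members 5 (*Axin2*, *Lef1*, *Tcf7*, *Nkd1* and *Znrf3*) lay 1 way in all 6 pairs, as did 40.6% of all genes.

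*Nkd1* (ENSMUSG00000031661, chromosome 8, 88521354 to 88594884), a binder of Dishevelled, was called lower in *Sox17*-*Erg* samples at 2 of the 3 time points. At Day 3 it had 13.7 and 12.8 CPM in the control libraries and 3.34 and 3.83 CPM in the *Sox17*-*Erg* libraries. At Day 7 control libraries had 26.8 and 27.4 CPM and *Sox17*-*Erg* libraries 4.38 and 13.2, and at 4 weeks the values were 28.2 and 43.3 in control and 11.9 and 17.2 in *Sox17*-*Erg*. Every *Sox17*-*Erg* library was below every control library of its time point, and the 2 *Sox17*-*Erg* replicates of Day 7 were far apart. The level was 3.68-fold lower at Day 3 (log2 fold change -1.88, standard error 0.45, adjusted p = 0.03 by edgeR) and 3.12-fold lower at Day 7 (-1.64, 0.43, 0.03). At 4 weeks it was 14.5 ± 3.79 CPM in *Sox17*-*Erg* and 35.7 ± 10.7 in control (SD, n = 2), a log2 fold change of -1.30 (standard error 0.42) that missed the threshold with an adjusted p of 0.053. With the replicate number as a block the 4-week change passed it (-1.29, adjusted p = 0.025), and so did a block within each time point (-1.29, 0.02). *Nkd1* and *Znrf3* had the smallest permutation p that is possible over the 3 time points (0.0093, exact and two-sided, with 10 genes so tested). Any gene reaches this p when its treatments do not overlap, in the same direction, at all 3 time points. The share of all genes that did so was not computed, nor was one for the permutation p of any other member. By the weaker measure of all 6 same-numbered pairs lying 1 way, the share was 40.6%. At 4 weeks *Nkd1* was also called by DESeq2 (adjusted p = 0.013), with that time point fitted alone (-1.27, 0.03), with no filter on low counts (-1.30, 0.00013) and without either *Sox17*-*Erg* library of Day 7 (-1.30, 0.0054 each), while the other alternatives gave adjusted p-values up to 0.26.

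The calls for *Nkd1* were lost in several fits that left out 1 library. Such fits keep 1 library in a group, and fewer of all genes were called in them too. The size of the difference held at Day 3 and varied at Day 7. Leaving out any of the 4 Day 3 libraries kept the log2 fold change at Day 3 between -1.99 and -1.83 but raised the adjusted p to between 0.09 and 0.2. At Day 7 the log2 fold change was -1.04 (adjusted p = 0.091) without *Sox17*-*Erg* replicate 1 and -2.67 (0.0017) without *Sox17*-*Erg* replicate 2. It was -1.68 (0.072) and -1.63 (0.097) without control replicate 1 and 2 of Day 7, -1.64 (0.05, just above the threshold) without control replicate 2 of Day 3, and -1.66 (0.12) with Day 7 fitted alone. Markers of mesothelial or epicardial cells (*Upk1b*, *Upk3b*, *Msln*, *Krt19* and *Wt1*, none of them at 0 counts in any group) were also lower in *Sox17*-*Erg* samples, with 1, 3 and 5 of the 5 called lower at the 3 time points. Their summed level was 115 to 189 CPM in *Sox17*-*Erg* libraries against 254 to 679 in control libraries at Day 3, 217 to 309 against 502 to 965 at Day 7, and 158 to 247 against 868 to 1364 at 4 weeks. Cardiomyocyte markers (*Tnnt2*, *Myh6*, *Actc1* and *Ttn*, none at 0 counts in any group) were lower as well, with 1, 1 and 3 of the 4 called. They summed to 326 to 401 CPM against 881 to 1514 on Day 3, 352 to 450 against 618 to 861 on Day 7 and 666 to 676 against 1036 to 1285 after 4 weeks. The part of either set of markers in the *Nkd1* difference was not tested.

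*Nkd2* (ENSMUSG00000021567, chromosome 13, 73818534 to 73847631), the paralog of *Nkd1*, was called higher in *Sox17*-*Erg* samples at Day 7. It had 29.6 and 27.9 CPM in control and 21.5 and 28.6 CPM in *Sox17*-*Erg* libraries at Day 3, which overlapped. At Day 7 control libraries had 10.7 and 8.56 CPM and *Sox17*-*Erg* libraries 25.7 and 39.1, and at 4 weeks the values were 4.91 and 11.5 in control and 11.9 and 17.7 in *Sox17*-*Erg*. All *Sox17*-*Erg* libraries were above the control libraries at Day 7 and 4 weeks, by a narrow gap at 4 weeks. On the log2 scale *Nkd2* differed by -0.20 on Day 3 (standard error 0.37, edgeR adjusted p = 0.76), and by Day 7 it was 3.36-fold higher (1.75, 0.38, 0.014). Its 4-week difference was 0.86 (0.38, 0.14). The Day 7 call was lost without control replicate 2 of Day 7 (1.59, adjusted p = 0.095) or *Sox17*-*Erg* replicate 2 of Day 7 (1.37, 0.065), and stood at the threshold without control replicate 1 of Day 7 (1.89, 0.05 after rounding). At 4 weeks *Nkd2* was called without control replicate 2 (1.60, adjusted p = 0.019), with a replicate block within each time point (0.94, 0.034) and with no filter on low counts (0.86, 0.0078), and its size fell to 0.36 (0.55) without control replicate 1. The difference between the Day 7 and Day 3 effects was 1.94 on the log2 scale (standard error 0.53, unadjusted p = 0.0049, adjusted p = 0.25 by edgeR), and it was called by DESeq2. Markers of smooth muscle or myofibroblasts (*Acta2*, *Tagln*, *Cnn1* and *Myh11*, none at 0 counts in any group) also differed, with 0, 3 and 2 of the 4 called higher in *Sox17*-*Erg* samples at the 3 time points. Their summed level was 4168 to 4484 CPM in *Sox17*-*Erg* libraries against 3089 to 3480 in control libraries on Day 3, 1629 to 4053 against 462 to 1247 on Day 7, and 3834 to 4028 against 905 to 2398 after 4 weeks, and their part in the *Nkd2* differences was not tested.

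In control samples the paralogs had opposite courses in time, while in *Sox17*-*Erg* samples edgeR called the rise of *Nkd1* and no change of *Nkd2*. The change of *Nkd2* from Day 7 to 4 weeks in *Sox17*-*Erg* samples (-1.13, adjusted p = 0.15 by edgeR) was called by DESeq2. In control samples *Nkd1* rose 2.70-fold from Day 3 to 4 weeks (log2 change 1.43, standard error 0.42, edgeR adjusted p = 0.034) and *Nkd2* fell 3.54-fold (-1.82, 0.38, 0.0093). The fall of *Nkd2* was called already from Day 3 to Day 7 (-1.58, 0.38, 0.038). In *Sox17*-*Erg* samples *Nkd1* rose 4.04-fold from Day 3 to 4 weeks (2.01, 0.45, 0.011), while *Nkd2* changed by -0.76 (0.37, 0.15). The 4-week level of *Nkd1* in *Sox17*-*Erg* samples, 14.5 ± 3.79 CPM (SD, n = 2), compares with 13.2 ± 0.674 CPM in control samples at Day 3. Across the 12 libraries, which share treatment and time, the log2 CPM of the paralogs had a Pearson correlation of -0.63, given as a description only.

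Of these time courses, the rise of *Nkd1* in control samples was not called without any 1 of the control libraries at Day 3 or 4 weeks (log2 change 1.10 to 1.71, adjusted p = 0.057 to 0.16) or without *Sox17*-*Erg* replicate 2 of Day 3 (1.43, 0.051). In *Sox17*-*Erg* samples the rise was not called without replicate 1 (1.98, 0.07) or replicate 2 of Day 3 (2.12, 0.051) or replicate 2 of 4 weeks (1.72, 0.053). The fall of *Nkd2* in control samples from Day 3 to 4 weeks was called without each single library, with the lowest size at -1.32 and the highest adjusted p at 0.047. From Day 3 to Day 7 it was lost without any 1 of the 4 control libraries compared (-1.72 to -1.42, 0.078 to 0.2) and without any 1 of the *Sox17*-*Erg* libraries at Day 3 or 4 weeks (-1.58 to -1.54, 0.051 to 0.058).

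**Figure D3:**
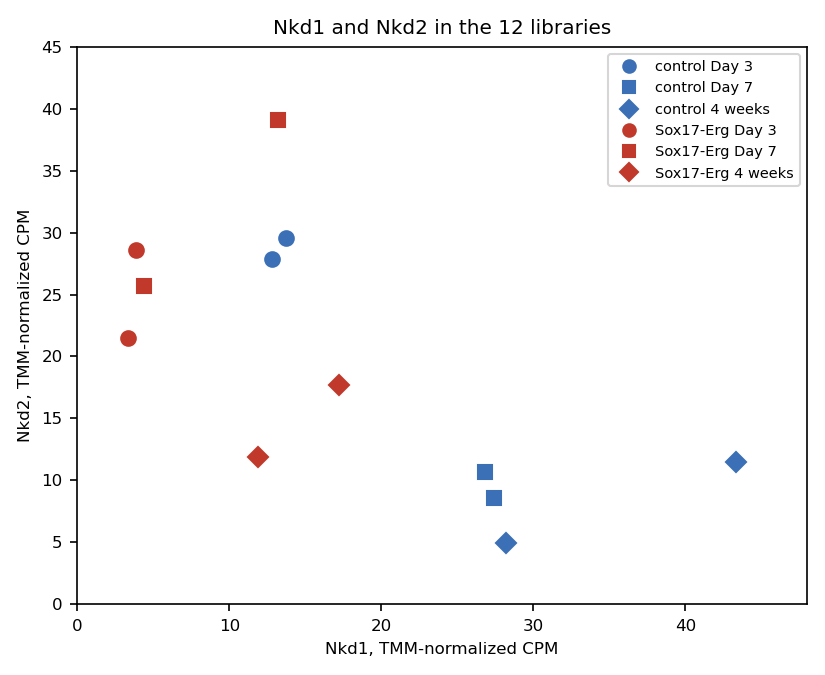
*Nkd1* (x axis) against *Nkd2* (y axis) in TMM-normalized CPM for each of the 12 libraries, control in blue and *Sox17*-*Erg* in red, with circles for Day 3, squares for Day 7 and diamonds for 4 weeks. Control libraries pass from the upper left at Day 3 (*Nkd2* 29.6 and 27.9) to the lower right at 4 weeks (*Nkd2* 4.91 and 11.5), and no *Sox17*-*Erg* library exceeds 17.2 CPM of *Nkd1*.

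*Znrf3* (ENSMUSG00000041961, chromosome 11, 5276324 to 5444847), a ligase that removes Frizzled receptors, was modestly higher in *Sox17*-*Erg* samples. The control libraries had 6.84 and 4.81 CPM on Day 3, 5.68 and 5.95 on Day 7, and 5.13 and 5.81 after 4 weeks. The *Sox17*-*Erg* libraries had 8.24 and 7.24 CPM, 9.37 and 7.25, and 8.31 and 9.63. All 6 *Sox17*-*Erg* libraries were above all 6 control libraries, of any time point. The 3 log2 fold changes, in order of time, were 0.41, 0.52 and 0.71, each with a standard error of 0.22. Their edgeR adjusted p-values were 0.24, 0.13 and 0.041, and the last is a level 1.64-fold higher. The 4-week call rests on a p near the threshold. It was lost without any 1 of the 4-week libraries (log2 fold change 0.58 to 0.81, adjusted p = 0.082 to 0.2), without either control library of Day 7 (0.71, 0.052 and 0.054) or either *Sox17*-*Erg* library of Day 3 (0.71, 0.055 and 0.057), with 4 weeks fitted alone (0.74, 0.055) and with no filter on low counts (0.71, 0.052). Within the treatments *Znrf3* changed by -0.09 in control samples (adjusted p = 0.78) and 0.21 in *Sox17*-*Erg* samples (0.49) from Day 3 to 4 weeks.

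*Rnf43* (ENSMUSG00000034177, chromosome 11, 87662722 to 87735539), the paralog of *Znrf3*, was near the limit of detection and fell below the count filter of the edgeR fit. At Day 3 the control libraries had 0 counts each and the *Sox17*-*Erg* libraries 6 and 2. At Day 7 control libraries had 1 count each and *Sox17*-*Erg* libraries 7 and 2, and at 4 weeks the counts were 7 and 6 in control and 5 and 4 in *Sox17*-*Erg*. The treatments were apart at Day 3 and Day 7 and not at 4 weeks, where control libraries had 0.175 and 0.244 CPM and *Sox17*-*Erg* libraries 0.177 and 0.148. Against a floor of 3 counts over the control group, *Rnf43* was at least 3.05-fold higher in *Sox17*-*Erg* samples at Day 3. This bound rests on *Sox17*-*Erg* replicate 1 with its 6 counts, since the 2 counts of replicate 2 alone lie under the floor. At Day 7 the ratio was 3.88 with a counting interval of 0.804 to 36.9. Such floors and intervals cover counting error only. Over the 3 time points *Rnf43* had an exact two-sided permutation p of 0.065, and it was higher in the *Sox17*-*Erg* library in 5 of 6 same-numbered pairs (exact sign-flip p = 0.16).

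*Notum* (ENSMUSG00000042988, chromosome 11, 120653788 to 120661175), the secreted Wnt deacylase, was close to silent at Day 3, with 2 and 1 counts in control and 0 and 2 in *Sox17*-*Erg* libraries. At Day 7 it had 6 and 5 counts in control and 11 and 10 in *Sox17*-*Erg*, and at 4 weeks 13 and 6 in control and 12 and 16 in *Sox17*-*Erg*. In CPM the *Sox17*-*Erg* libraries were above the control libraries at Day 7 (0.303 and 0.439 against 0.230 and 0.201) and at 4 weeks (0.425 and 0.592 against 0.326 and 0.244), and neither difference was called (log2 fold change 0.75, adjusted p = 0.48, and 0.81, 0.4). From Day 3 to 4 weeks *Notum* rose in *Sox17*-*Erg* samples from 2 to 28 counts, a ratio of 10.9 with a counting interval of 2.75 to 94.3 (edgeR adjusted p = 0.016). This rise was not called without *Sox17*-*Erg* replicate 1 of Day 3 (adjusted p = 0.084) or without either *Sox17*-*Erg* library of 4 weeks (0.051 and 0.07). In control samples it went from 3 to 19 counts, a ratio of 4.82 (1.42 to 25.4, adjusted p = 0.077). Annotated antisense genes share 708 and 210 bases with *Notum* exons. The methods name a stranded library kit, but whether the quantification used strand is not given in the sources used here.

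Among the TCF factors, *Tcf7* (ENSMUSG00000000782, chromosome 11, 52252371 to 52283014), which encodes TCF1, was higher in *Sox17*-*Erg* samples. The control libraries had 0.582 and 0.462 CPM on Day 3, 0.614 and 0.321 on Day 7, and 0.150 and 0.244 after 4 weeks. The *Sox17*-*Erg* libraries had 1.21 and 1.16 CPM, 1.27 and 0.395, and 1.42 and 0.629. The treatments did not overlap at Day 3 and 4 weeks, and at Day 7 *Sox17*-*Erg* replicate 2 fell within the control values. The first 2 time points gave log2 fold changes of 1.17 (standard error 0.64, edgeR adjusted p = 0.25) and 0.85 (0.64, 0.4). The 4-week value was 2.39 (0.69, 0.035), a level 5.24-fold higher that rests on 57 counts in *Sox17*-*Erg* and 12 in control libraries. The exact permutation p over the 3 time points was 0.019. Without *Sox17*-*Erg* replicate 1 the log2 fold change at 4 weeks was 1.68 (adjusted p = 0.23) and at Day 7 it was -0.24 (0.91). At 4 weeks it was 2.05 (0.2) and 2.74 (0.085) without control replicate 1 and 2, and 2.39 to 2.42 (0.052 to 0.055) without any 1 of the 4 Day 3 libraries or with 4 weeks fitted alone. Markers of proliferation (*Mki67*, *Top2a*, *Ube2c*, *Cenpf* and *Prc1*) also differed at 4 weeks, where 5 of 5 were called higher and their sum was 76.8 to 209 CPM in *Sox17*-*Erg* and 29.7 to 32.2 in control libraries. Earlier, 0 were called, with sums of 877 to 1059 against 310 to 400 CPM on Day 3 and 275 to 717 against 128 to 402 on Day 7, and their part in the *Tcf7* and *Znrf3* differences was not tested.

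*Lef1* (ENSMUSG00000027985, chromosome 3, 131110471 to 131224356), the other TCF factor of low abundance, had lower means in *Sox17*-*Erg* samples and was not called. It had 1.05 and 0.740 CPM in control and 0.607 and 0.388 in *Sox17*-*Erg* libraries at Day 3. At Day 7 the values were 0.844 and 0.884 in control and 0.606 and 0.791 in *Sox17*-*Erg*, and at 4 weeks 0.426 and 1.06 in control and 0.318 and 0.703 in *Sox17*-*Erg*. The treatments were apart at Day 3 and Day 7 and overlapped at 4 weeks. In order of time its log2 fold changes were -0.86 (95% interval -2.17 to 0.45, adjusted p = 0.36), -0.31 (-1.57 to 0.94, 0.74) and -0.51 (-1.79 to 0.77, 0.57). These intervals leave room for a 2-fold fall at each time point but not for a 2-fold rise. At 4 weeks it became 0.26 without control replicate 2. By replicate number *Lef1* was lower in the *Sox17*-*Erg* library in 6 of 6 pairs, where 40.6% of all genes lay 1 way in all 6. The exact sign-flip permutation test over these pairs, chosen after seeing the data, gave p = 0.031, and the permutation within time points gave 0.093. An annotated antisense gene shares 1208 bases with *Lef1* exons.

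*Tcf7l1* (ENSMUSG00000055799, chromosome 6, 72626378 to 72789254), the most abundant TCF factor, differed little. Control libraries had 42.6 and 45.5 CPM on Day 3, 45.5 and 49.3 on Day 7, and 40.9 and 50.0 after 4 weeks, and *Sox17*-*Erg* libraries had 30.8 and 37.8, 41.8 and 43.8, and 45.1 and 41.4. The *Sox17*-*Erg* libraries were lower at Day 3 and, narrowly, at Day 7, and overlapped control at 4 weeks. The log2 fold change went from -0.36 (95% interval -0.67 to -0.05, adjusted p = 0.11) on Day 3 through -0.15 (-0.45 to 0.16, 0.49) to -0.07 at 4 weeks (-0.38 to 0.24, 0.76). An exact permutation test over the 3 time points gave a two-sided p of 0.046 for *Tcf7l1*, and sign flips of the same-numbered pairs, of which 5 of 6 were lower, gave 0.094. These intervals exclude a 2-fold change at each time point. The 4-week value was 0.09 without control replicate 2. An antisense gene shares 179 bases with its exons, as another does 209 bases with those of *Axin2*.

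*Tcf7l2* (ENSMUSG00000024985, chromosome 19, 55741820 to 55933654), the TCF factor known for its role in intestinal stem cells and in diabetes risk, fell with time in control samples. It had 25.4 and 24.9 CPM there on Day 3, 23.0 and 20.6 on Day 7, and 19.2 and 16.7 after 4 weeks, a log2 change of -0.49 from Day 3 to 4 weeks (standard error 0.13, adjusted p = 0.024). That call was lost without any 1 of the 4 control libraries compared (-0.59 to -0.39, 0.053 to 0.14) and with no filter on low counts (-0.47, 0.062). In *Sox17*-*Erg* samples it had 21.8 and 22.7 CPM, 24.9 and 28.8, and 24.7 and 21.3, a change of 0.05 (0.13, 0.82). The *Sox17*-*Erg* libraries were thus below the control libraries at Day 3 and above them at Day 7 and 4 weeks, without overlap at any of the 3. The differences on the log2 scale were -0.18, 0.30 and 0.36, each with a standard error of 0.13, and none was called (adjusted p = 0.4, 0.15 and 0.078 by edgeR).

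Over time, 1 of the 9 tested members was called in control samples between the first 2 time points (8.76% of all genes), 0 between the last 2 (0.393%) and 3 over the whole course (26.5%). The counts for the *Sox17*-*Erg* samples were 0 (3.42%), 0 (1.82%) and 2 (30.7%). Where edgeR called none, an unadjusted p under 0.05 was reached by 0 members in control samples between the last 2 time points (15.3% of all genes), and in *Sox17*-*Erg* samples by 3 between the first 2 (23.4%) and 1 between the last 2 (18.4%). DESeq2 called 0 (4.74% of all genes), 1 (*Nkd1*, 10.9%) and 1 (*Nkd2*, 6.81%) there. The difference in the *Sox17*-*Erg* effect between time points was called by edgeR for none of the 9 genes, in the same 3 pairs of time points (0.0838%, 0.0387% and 3.21% of all genes), with 2, 0 and 1 at an unadjusted p under 0.05 (8.91%, 6.47% and 16.9% of all genes). DESeq2 called 1 (*Nkd2*, between Day 3 and Day 7, 1.75%), 0 (0.920%) and 0 (6.65%). By edgeR a gene called at 1 time point is therefore not shown to respond differently at another.

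The genes whose log2 CPM followed *Axin2* most closely over the 12 libraries were *Ctla2a*, *Hoxb2*, *Mgat4a*, *Ctxn1* and *Mras*, with Pearson correlations from 0.91 to 0.93. For *Lef1* they were *Plek*, *Fam84a*, *Prkcb*, *Gm6793* and *Acsm2*, from 0.87 to 0.90. *Plek* and *Prkcb* are known for their expression in blood cells, and the summed level of 5 macrophage markers ran from 42.4 to 1129 CPM over the control libraries and from 53.4 to 380 CPM over the *Sox17*-*Erg* libraries, without overlap on Day 7 (202 to 380 in *Sox17*-*Erg* against 691 to 1129 in control), with 0 of the 5 called at any time point. T cell markers, which bear on *Lef1* and *Tcf7* because both are abundant in T cells, summed to at most 6.30 CPM in any library, with *Ptprc*, which macrophages share, among the 5 and *Cd3g* at 0 counts in 3 of the 6 groups. What these cells add to the levels of *Lef1* and *Tcf7* was not tested. For *Nkd1*, chosen for this after its values were seen, the closest genes were *Rasgrp2*, *Rnf130*, *Emilin1*, *Eif4e3* and *Fam180a* (0.97 to 0.98). Such correlations are the highest of 15506 genes in libraries that share treatment and time, and are a description only.

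The rest of the pathway was followed in 7 lists, given as counts of tested genes that passed the threshold, to be read against the shares of all genes called higher (7.19%, 9.48% and 11.9% at the 3 time points) and lower (5.13%, 7.93% and 11.0%). In lists of this size a single call moves the share by much, and no list was tested against the shares of all genes. Of 19 Wnt ligands 8 could be tested, and 2, 2 and 3 were higher on Day 3, on Day 7 and at 4 weeks (37.5% at 4 weeks), with none lower. *Wnt5a*, best known as a ligand of the noncanonical branch, had 224 ± 8.92 CPM in *Sox17*-*Erg* and 51.8 ± 15.6 in control samples at 4 weeks (log2 fold change 2.11, adjusted p = 0.0032). *Wnt11*, another ligand of that branch, had 46.3 ± 16.7 against 7.21 ± 0.843 CPM (2.68, 0.0014). Both were also called at Day 3 (2.74 and 2.58, adjusted p = 0.0034 and 0.0071) and Day 7 (2.32 and 2.46, 0.0031 and 0.0033). *Wnt16* had 30 counts in the *Sox17*-*Erg* and 3 in the control libraries at 4 weeks, a ratio of 11.7 (counting interval 3.63 to 59.8, adjusted p = 0.042). The list's median log2 fold change at 4 weeks was -0.28, with 5 of the 8 not called.

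Of 22 receptors, R-spondins and R-spondin receptors 19 could be tested, with 4, 4 and 5 higher and 1, 3 and 5 lower at the 3 time points (26.3% each way at 4 weeks). *Fzd3*, a Frizzled receptor, had 23.5 ± 1.55 CPM against 2.09 ± 0.0861 in control samples at 4 weeks (log2 fold change 3.48, adjusted p = 1e-04). The R-spondins *Rspo1* and *Rspo2*, secreted ligands that hold ZNRF3 and RNF43 in check, were lower than in control samples at 4 weeks. *Rspo1* had 7.54 ± 2.29 against 30.5 ± 14.0 CPM (-2.02, 0.019) and *Rspo2* 0.218 ± 0.0582 against 2.33 ± 1.45 CPM (-3.40, 0.004). Earlier, *Rspo1* was not called (-1.29, adjusted p = 0.14, on Day 3 and -1.07, 0.18, on Day 7), and *Rspo2* differed by 0.13 (0.91) on Day 3 and was lower on Day 7 (-2.25, 0.023). *Rspo3*, named here after its values were seen, was higher on Day 3 (3.75, 0.023), with 73 and 20 counts against 4 and 4, and not called later (-0.09, 0.95, and -0.67, 0.57). The median log2 fold change of this list was 0.04.

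Inside the cell, 3, 2 and 4 of the 14 genes of the beta-catenin machinery were higher and 1, 1 and 0 lower, with a median of 0.26 and 28.6% higher at 4 weeks. *Ctnnb1*, which encodes beta-catenin, had 1023 ± 99.7 CPM in *Sox17*-*Erg* and 556 ± 23.1 in control samples at 4 weeks (log2 fold change 0.88, adjusted p = 0.0029). The tankyrase *Tnks*, which marks AXIN proteins for degradation, and the kinase *Gsk3b* of the destruction complex were higher by 0.84 (adjusted p = 0.015) and 0.55 (0.004). Of the 16 nuclear partners of the TCF factors 3, 1 and 5 were higher and 1, 0 and 0 lower, with a median of 0.24 and 31.2% higher at 4 weeks. *Pygo1* and *Bcl9*, coactivators of beta-catenin, were higher by 0.93 (adjusted p = 0.031) and 0.63 (0.018), and *Ctnnbip1*, an inhibitor of its binding to TCF factors, by 0.78 (0.0057).

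Among 14 other genes known as Wnt targets in some tissue, 9 could be tested, with 2, 3 and 2 higher and 2 each time lower (22.2% each way at 4 weeks). *Cd44*, an adhesion receptor, had 354 ± 53.4 CPM in *Sox17*-*Erg* and 27.9 ± 7.61 in control samples at 4 weeks (log2 fold change 3.67, adjusted p = 5.2e-05). *Dkk1*, a secreted Wnt antagonist, had 1.64 ± 0.564 against 0.305 ± 0.0290 CPM (2.40, 0.014), and *Bambi*, a pseudoreceptor of TGF-beta signaling, 6.08 ± 2.29 against 13.3 ± 2.41 CPM (-1.12, 0.011). The median of the list was 0.51. These genes moved in both directions.

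The secreted inhibitors were the list with the highest median at 4 weeks, 1.42, with 5 of the 9 tested genes higher and 2 lower (55.6% and 22.2%). *Sost*, which blocks the LRP co-receptors, had 0 counts in all control libraries and 1451 counts in the *Sox17*-*Erg* libraries at 4 weeks, at least 565-fold higher against a floor of 3 counts over the control group. As fitted or at this bound, *Sost* lies above the median. *Sostdc1*, its relative, had 28.2 ± 2.49 CPM against 0.116 ± 0.0488 (log2 fold change 7.80, adjusted p = 0.002), and *Dkk2* 17.9 ± 2.60 against 1.11 ± 1.05 CPM (3.93, 0.0015). At Day 3 the list had 2 genes higher and 1 lower, and at Day 7 it had 3 and 2.

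Of 12 genes tied to Wnt signaling in brain endothelium 11 could be tested, with 1, 2 and 3 higher and 2, 2 and 3 lower at the 3 time points (27.3% each way at 4 weeks) and a median of -0.06 at 4 weeks. *Mfsd2a*, a lipid transporter of the blood-brain barrier, had 107 ± 1.16 CPM in *Sox17*-*Erg* and 0.674 ± 0.599 in control samples at 4 weeks (log2 fold change 7.46, adjusted p = 5.4e-05). *Ndp*, which encodes the Frizzled ligand Norrin, had 28 against 3 counts, a ratio of 10.9 (counting interval 3.37 to 56.0, adjusted p = 0.018). The efflux pump gene *Abcb1a* was lower, at 0.327 ± 0.0616 against 3.63 ± 1.17 CPM (-3.46, 0.0081). All list values were from the edgeR fit that gave the members' values, and they were not put through the alternatives tried for the members, such as leaving out single libraries.

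**Figure D4:**
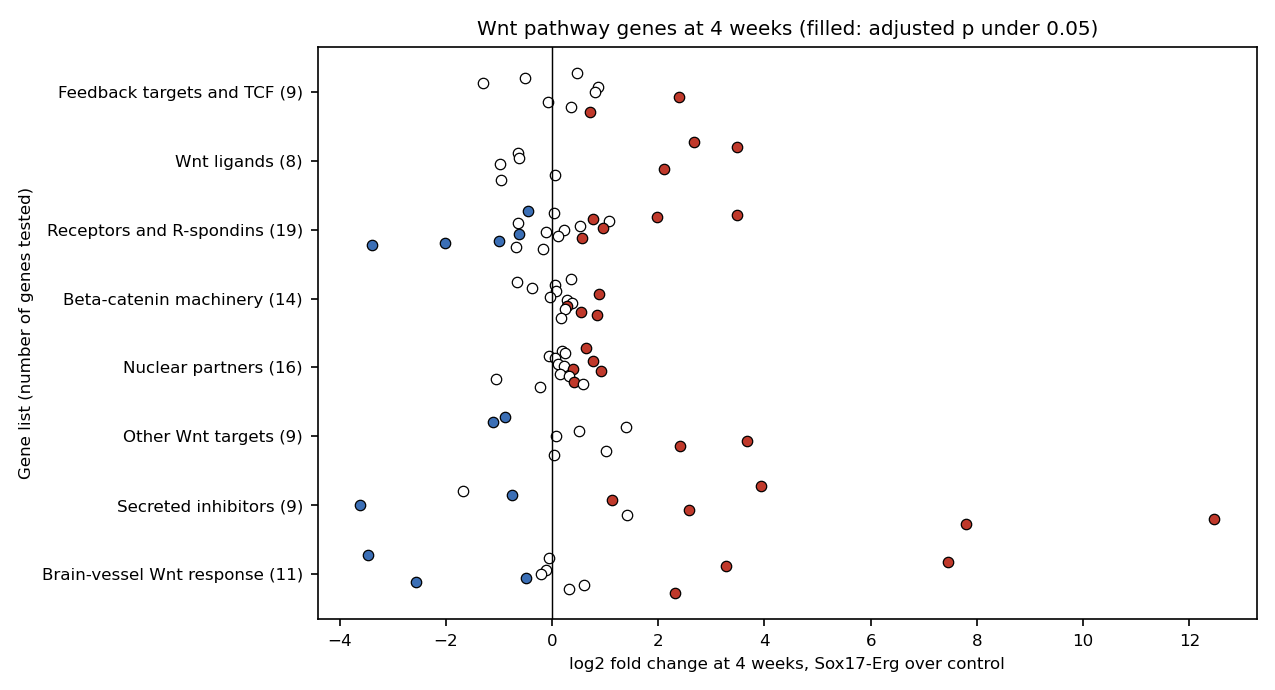
Log2 fold change of *Sox17*-*Erg* over control at 4 weeks (x axis) for each tested gene of 8 gene lists (y axis, number of genes tested in brackets), 1 circle per gene, filled red when called higher and blue when called lower. The 9 feedback targets and TCF factors lie between -1.30 and 2.39, while *Sost*, with no control counts, has the rightmost circle, whose position depends on the fit's prior count.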

How the data were processed

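Poly(A) RNA of 12 fibroblast cultures from neonatal mouse hearts, 2 for each treatment and time point, was sequenced in bulk. Per the labels, reads were demultiplexed with bcl2fastq 2.20.0, quantified with Salmon and referred to mm10. The methods add that high GC content was trimmed with BBDuk before quantification, which can thin the reads of GC-rich transcripts. The authors deposited estimated counts per Ensembl gene, rounded to whole numbers and not scaled for library size. Libraries were made with a stranded kit per the methods, while the Salmon version, annotation and strand setting are not given in the sources used here.

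A quasi-likelihood model of edgeR 4.0.16 in R 4.3.3 was used (TMM, filterByExpr with a minimum count of 10, 1 mean per group, 6 residual degrees of freedom) over all 12 libraries, and 15506 genes were tested. Standard errors were taken from the fold change and its F value. Symbols and positions came from GENCODE M21 (GRCm38), which held 35422 of 35727 identifiers. Log2 CPM used a prior count of 2. CPM per kb used merged exon length. Named by rule were all 10 members, the 5 genes most correlated with *Axin2* and *Lef1*, and at most 3 genes per list with the largest change among those called at 4 weeks. *Rspo3* and the 5 genes most correlated with *Nkd1* were added after values were seen. The same search was run for *Nkd2*, *Tcf7* and *Znrf3*, also after values were seen, and is not shown. Members and lists were chosen with earlier results of these data known. The replicate counts of each group differed far beyond counting error (chi-square per degree of freedom 27.8 to 71.6), so no library was counted as a repeat.

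Replicate numbers come from the sample titles. Deviations of same-numbered libraries from their group means correlated by 0.19, 0.30 and 0.17 across genes at Day 3, Day 7 and 4 weeks, so a replicate block was tried, and sign flips of same-numbered pairs were added after seeing the data. Other alternatives were DESeq2 1.42.0, its size factors, other filters and thresholds, fits of single time points and leaving out each library. The scripts were tested on simulated data in which a set of genes had been changed.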

Additional observations from a re-analysis of the deposited data

Results flagged for a closer look

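*Tcf7l2* is listed because its *Sox17*-*Erg* libraries lay below both control libraries at Day 3 and above both at Day 7 and 4 weeks. Of all genes 64.0%, 57.9% and 62.7% had no overlap at Day 3, Day 7 and 4 weeks. The share that changed direction in this way was not computed. The log2 fold changes were -0.18, 0.30 and 0.36. The difference between the effects at 4 weeks and Day 3 was 0.54 on the log2 scale (standard error 0.18), with an unadjusted p of 0.017 and an adjusted p of 0.17 by edgeR, so it did not pass the threshold over all genes. Between Day 7 and Day 3 it was 0.48 (standard error 0.18, unadjusted p = 0.028, adjusted p = 0.48). Groups of 2 libraries are too small for a test of single libraries that stand apart.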

How the results depend on the processing

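Groups of 2 libraries and, for *Lef1*, *Tcf7*, *Notum* and *Rnf43*, low counts set the limits. Calls over all genes moved with these settings too, and their shares, in both directions together unless said, stand in brackets. With an adjusted p under 0.01, 0 members were called lower at Day 3 (2.72%), 0 higher and 0 lower at Day 7 (7.10%), 0 higher at 4 weeks (11.8%), 1 over time in control (11.1%) and 0 over time in *Sox17*-*Erg* samples from Day 3 to 4 weeks (13.7%). With a minimum log2 fold change of 1, 1 member was higher at 4 weeks (13.6%). With each time point fitted alone, 0 were lower at Day 7 (7.46%), 0 were higher at 4 weeks and 1 was lower there (20.7%). DESeq2 (24.2%) and no filter on low counts (15.9%) each called 1 member lower at 4 weeks, as did the replicate block (24.6%) and the replicate block within each time point (31.0%), *Nkd1* in each case. The replicate block over all libraries changed no other call between treatments, and that within each time point changed also *Nkd2* at 4 weeks. A minimum count of 30 left 1 member called over time in *Sox17*-*Erg* samples, since *Notum* was not tested (34.3%). Without single libraries the counts ran from 0 to 0 higher and 0 to 1 lower at Day 3 (1.69% to 12.3% of all genes called), 0 to 1 higher and 0 to 1 lower at Day 7 (5.69% to 15.5%), 0 to 2 higher and 0 to 1 lower at 4 weeks (10.5% to 22.2%), 1 to 3 over time in control (11.0% to 26.0%), 0 to 2 over time in *Sox17*-*Erg* (13.2% to 29.8%) and 0 to 0 for the difference in effect (1.06% to 2.97%). Signs turned in 4 cases, none of them called, when a library was left out: *Lef1* at 4 weeks (-1.20 to 0.26 over single libraries, turned without control replicate 2), *Tcf7l1* at 4 weeks (-0.21 to 0.09, without control replicate 2), *Tcf7* at Day 7 (-0.24 to 1.38, without *Sox17*-*Erg* replicate 1) and *Notum* at Day 3 (-3.82 to 0.44 as fitted, on 2 and 3 counts, without *Sox17*-*Erg* replicate 1). A prior count of 0.5 moved the permutation p of *Rnf43* from 0.065 to 0.046. Sign flips of same-numbered pairs, chosen after seeing the data, moved that of *Axin2* from 0.065 to 0.031, of *Lef1* from 0.093 to 0.031 and of *Tcf7l1* from 0.046 to 0.094. Over the log2 fold changes of single genes, leaving out a library gave 341 values of the same direction and side of the threshold, 48 that lost the call, 3 newly called and 4 turned, and the other alternatives gave 197, 5, 7 and 0. The cause was not tested.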
